A study of Mus musculus with 2 samples.

Results

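This account covers the N6-methyladenosine (m6A) sites that lay on mouse chromosome 7. All intervals listed for that chromosome were taken from both replicate lists, and intervals with the same start and strand were merged, which gave 522 sites of 7019 in replicate 1 and 528 of 7182 in replicate 2. Together they made 902 distinct positions of 12516 in the whole data set. The choice used only the chromosome and no measured strength. Both samples were testes of control mice taken 12 days after birth, the control side of a Mettl3 conditional knockout study. The labels name B6D2F1, DBA2 and C57BL6 mice without tying a strain to a sample, and give neither the control genotype nor the animals behind each replicate, so the spread between them may be technical. Sites were mapped by miCLIP, in which an anti-m6A antibody is crosslinked to RNA and the crosslink marks the modified base in the cDNA. The lists hold intervals of 5 nt without a score, and the read depth behind a site is unknown.

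m6A is written onto messenger RNA by a methyltransferase complex whose catalytic subunit is METTL3, mostly at adenosines in a short consensus called DRACH. It is often found in long internal exons and near stop codons, and reader proteins of the YTH family bind it and influence splicing, translation and decay of the transcript. In the testis the mark is known to be needed for differentiation of spermatogonia and for meiosis. Because miCLIP reads RNA, the strand of a site is the strand whose sequence the RNA carries. Mouse chromosome 7 carries several imprinted domains and large families of olfactory and vomeronasal receptor genes. No site was assigned to a gene, exon or untranslated region, since an mm9 annotation was not used here. Positions below are central bases of the intervals, 1-based on mm9.

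Chromosome 7 held 525 ± 4.24 sites (SD, n = 2), or 7.39% ± 0.0603 of all sites. The first position lay at 3568995 and the last at 152116338. Site density up to the last site was 3.43 per Mb in replicate 1 and 3.47 in replicate 2, the fifth highest of the 19 autosomes in each. Chromosome 9 was just above it, at 3.49 in both replicates. These densities correct neither for the number of genes on a chromosome nor for their expression.

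The sites were spread unevenly. Of 153 bins of 1 Mb, 103 held a site in at least 1 replicate, 86 held sites in both, and 50 were empty in both. The 7 bins seen in replicate 1 only held 8 sites in total, and the 10 seen in replicate 2 only held 19, with at most 5 in a bin. Bins found in a single list were therefore mostly sparse, though 128 to 129 Mb had 5 sites in replicate 2. In replicate 1, 50% of the sites lay in 19 bins, and in replicate 2 in 18 bins, while the median occupied bin had 3 sites in each. The 10 densest bins together held 34.5% of replicate 1 and 33.3% of replicate 2.

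Bin counts of the replicates followed each other closely. Across the 153 bins Pearson's r was 0.926 and Spearman's rho 0.882, and over the 103 occupied bins alone 0.904 and 0.790. With the shared positions taken out of both lists the values over all bins were 0.855 and 0.802, so the likeness did not rest on identical positions alone. Bins of a chromosome are not independent replicates, and these values are descriptions. Counts differed by at most 3 sites in 89 of the 103 occupied bins and by at most 7 in any bin. Replicate 1 was higher in 46 bins and replicate 2 in 45.

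**Figure D1:**
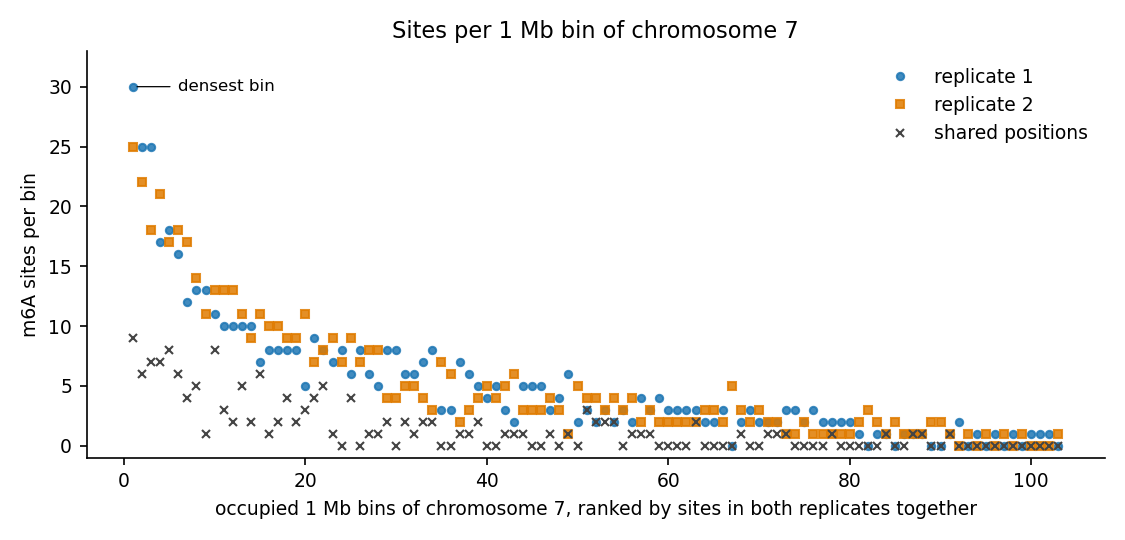
Sites per 1 Mb bin (vertical axis) in the 103 occupied bins of chromosome 7, ranked by the sum over both replicates (horizontal axis); circles are replicate 1, squares replicate 2 and crosses the shared positions. The densest bin had 30 and 25 sites, and the median occupied bin had 3 in each replicate.

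The bin from 52 to 53 Mb ranked first in both lists, at 30 sites for replicate 1 and 25 for replicate 2. That was 5.75% of the chromosome's sites in replicate 1 (95% Wilson interval 4.06 to 8.09%) and 4.73% in replicate 2 (3.23 to 6.90%). The next highest count was 25 in replicate 1 and 22 in replicate 2. This bin was chosen with its count known, so its rank is a description. The second bin by the sum of both lists was 134 to 135 Mb, with 25 and 22 sites. It was followed by 29 to 30 Mb with 25 and 18, and by 125 to 126 Mb with 17 and 21. Adjoining bins at 30 to 31 and 31 to 32 Mb had 18 and 17, and 16 and 18, so that 3 of the 6 densest bins stood side by side. The other 4 of the first 10 were 105 to 106 Mb with 12 and 17 sites, 87 to 88 Mb with 13 and 14, 4 to 5 Mb with 13 and 11, and 107 to 108 Mb with 11 and 13. Shared positions were most frequent in the last of these, where 8 of 16 positions stood in both lists, and least in 4 to 5 Mb, where 1 of 23 did.

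Within the 52 to 53 Mb bin the sites did not form a single cluster. Its 46 positions ran from 52067777 to 52975321 and fell into 33 same-strand groups, of which 27 were single positions. Here a same-strand group means successive sites of 1 strand, none more than 1 kb from the next. Over both lists the strands were nearly even, with 24 positions on plus and 22 on minus, and alternated 13 times along the bin. Shared positions numbered 9, which was 30% of the sites of replicate 1 there (16.7 to 47.9%) and 36.0% of those of replicate 2 (20.2 to 55.5%). These intervals include the shares of the whole chromosome, 28.4% and 28.0%.

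The bin had 3 long gaps. The longest, 248 kb, ran from 52384063 to 52632505, and the next spanned 112 kb from 52122287 and 68.8 kb from 52679713. Just after the longest gap the replicates parted: from 52632505 to 52771940, 139 kb, replicate 1 had 9 sites, 7 of them on the minus strand, and replicate 2 had only the shared site at 52748496. This stretch was picked after its values were seen. A run of 10 plus-strand positions lay from 52771940 to 52882899, with 6 sites in each replicate. Its first position was also the last site of that stretch. The densest group of the bin lay on the plus strand from 52084149 to 52086177, with 3 sites of replicate 1 and 5 of replicate 2 and no shared position.

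**Figure D2:**
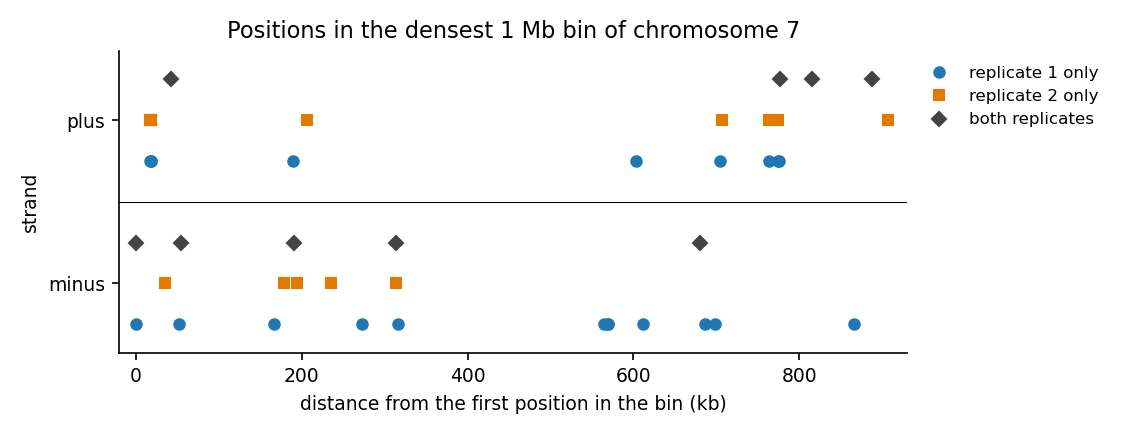
The 46 positions of the densest 1 Mb bin by distance from its first position in kb (horizontal axis), on the plus strand (above the line) and minus strand (below the line); circles were found in replicate 1 only, squares in replicate 2 only and diamonds in both. The 9 shared positions are spread over both strands, 4 on plus and 5 on minus, and lie on both sides of the gap of 248 kb.

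Long stretches of the chromosome had no site in either list. There were 27 runs of empty bins, of which 17 were 1 bin long and 3 were 2 bins long. The 7 longer runs covered 27 of the 50 empty bins. They lay at 0 to 3, 8 to 13, 21 to 25, 40 to 46, 57 to 60, 78 to 81 and 101 to 104 Mb. The first of these is no measured absence, since the mouse assembly begins this chromosome with a gap of unsequenced bases to which no read can map. Measured between sites rather than bins, the longest stretch ran from 39048146 to 46700653, or 7.65 Mb, and in replicate 1 alone it had the same ends. In replicate 2 alone it ran from 39048081 to 46823766, or 7.78 Mb. The second, of 5.84 Mb, lay between 7236805 and 13079681, and the third, of 4.72 Mb, between 20341487 and 25060115. Whether these stretches hold expressed transcripts was not tested. Counted in whole bins, its longest run of 6 was equalled or exceeded on 10 other autosomes. Measured between sites, only chromosomes 14 (9.40 Mb), 5 (8.63 Mb) and 6 (7.85 Mb) had a longer stretch than its 7.65 Mb. Of its bins, 67.3% were occupied, the seventh highest share of 19.

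Between the empty runs lay 27 occupied stretches. The 11 with at least 30 positions held 788 of the 902, or 87.4%. The largest was 25 to 33 Mb, with 77 sites in replicate 1, 66 in replicate 2 and 22 shared. Next came 46 to 55 Mb, which includes the densest bin, with 60, 66 and 23, and 132 to 141 Mb, with 55, 61 and 13. Between 104 and 111 Mb the numbers were 50, 67 and 21. Over the 11 stretches, shared positions made up between 7.55% and 22.3% of all positions. The low end was 146 to 153 Mb, with 4 shared of 53 positions (2.97 to 17.9%), and 116 to 122 Mb, with 4 of 52 (3.03 to 18.2%). The high end was 46 to 55 Mb, with 23 of 103 (15.4 to 31.3%), whose interval overlaps both. Another 11 stretches, with 63 positions in all, had no shared position.

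More sites lay on the minus strand than on the plus strand. Replicate 1 had 229 plus and 293 minus sites, and replicate 2 had 243 and 285. Plus-strand sites were 43.9% in replicate 1 (39.7 to 48.2%) and 46.0% in replicate 2 (41.8 to 50.3%), against 51.5% and 52.6% on the other autosomes. The difference passed in both replicates (Fisher's exact test, 2-sided, adjusted p = 0.0196 and 0.0426, Benjamini-Hochberg over 114 tests). These results are not independent, since the 148 positions found in both lists enter each of them. The same test passed for 21.1% of the 19 autosomes in each replicate, so a strand imbalance was not rare. In replicate 1 these were chromosomes 7, 9, 13 and 15, and in replicate 2 chromosomes 1, 7, 17 and 19. Chromosomes 9 and 19 had a higher plus-strand share than the others, and the rest a lower one. Chromosome 7 was in both sets, and whether it differed from the others in this respect was not tested. By plus-strand share it ranked 17 of 19 in both replicates.

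The test treats sites as independent, and sites of 1 transcript share its strand. With same-strand groups in place of sites, plus-strand groups were 44.7% and 45.8%, against 51.1% and 51.7% on the other autosomes, and the difference no longer passed (Fisher's exact test, adjusted p = 0.110 and 0.142). Among the 148 shared positions, 62 were on the plus strand and 86 on the minus strand, or 41.9% plus against 50.9% (adjusted p = 0.268 by the same exact test).

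The lean to the minus strand was uneven along the chromosome. In a stretch of 15 Mb, picked after its strand was seen, from 25 to 40 Mb, replicate 1 had 24 plus and 66 minus sites and replicate 2 had 20 and 60, a plus share of 26.7% (18.6 to 36.6%) and 25% (16.8 to 35.5%). Of the 26 shared positions there, 5 were plus and 21 minus. From 34 to 40 Mb every site was on the minus strand, 13 in replicate 1 and 14 in replicate 2, at 23 positions in 14 groups; 0 of 13 and 0 of 14 allow a plus share of up to 23.1% and 21.4%. These positions ran from 34926216 to 39048146, just before the longest empty stretch. In the rest of the chromosome the plus share was 47.5% in replicate 1 (42.8 to 52.2%) and 49.8% in replicate 2 (45.2 to 54.4%). This rest held 227 of the 293 minus sites of replicate 1 and 225 of the 285 of replicate 2. Since the stretch was picked for its strand, a higher plus share outside it was fixed by the choice; without it the difference from the other autosomes did not pass (Fisher's exact test, adjusted p = 0.304 and 0.522). Over all bins the lean was slight, with 54 bins holding more minus positions, 45 more plus positions and 4 equal numbers.

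**Figure D3:**
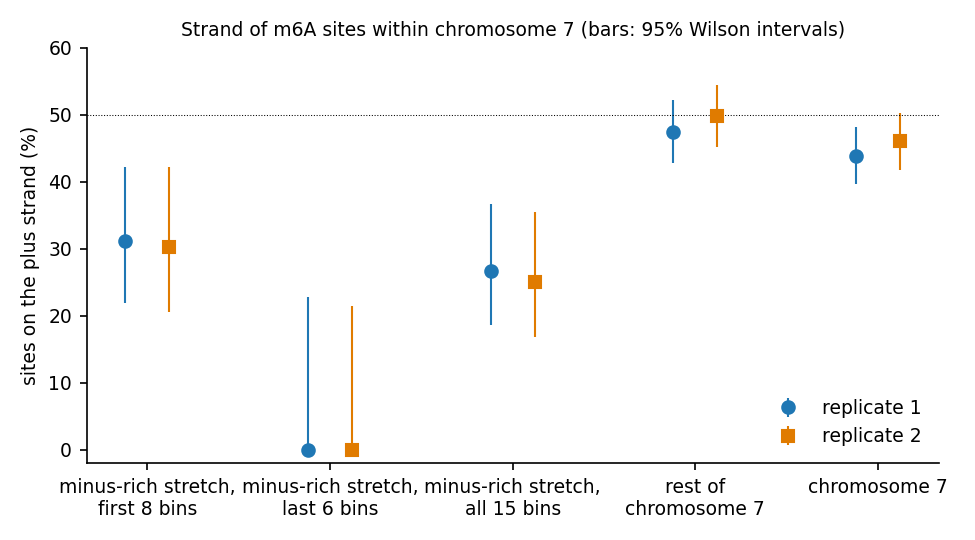
Share of sites on the plus strand in percent (vertical axis) in the minus-rich stretch from 25 to 40 Mb (first 8 bins: 25 to 33 Mb; last 6 bins: 34 to 40 Mb), in the rest of chromosome 7 and in the whole chromosome; circles are replicate 1, squares replicate 2, bars 95% Wilson intervals and the dotted line 50%. The stretch of 15 bins lies at 26.7% and 25%, and the rest at 47.5% and 49.8%.

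Among single dense bins, inside and outside this stretch, strand shares varied widely. The 125 to 126 Mb bin had 2 plus and 15 minus sites in replicate 1 and 4 and 17 in replicate 2. The 31 to 32 Mb bin, inside the stretch, had 3 and 13, and 3 and 15. The 107 to 108 Mb bin leaned the other way, with 9 plus and 2 minus sites in replicate 1 and 9 and 4 in replicate 2. In 2 of the 10 densest bins the lists leaned opposite ways. These were 134 to 135 Mb, with 15 plus and 10 minus sites in replicate 1 but 9 and 13 in replicate 2, and the densest bin, 52 to 53 Mb, with 13 and 17 in replicate 1 but 15 and 10 in replicate 2. The 105 to 106 Mb bin was near even, with 6 and 6, and 8 and 9.

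Exact recurrence was somewhat more frequent than on other autosomes, but not beyond the threshold. The lists shared 148 positions, or 16.4% of the 902, while 374 were in replicate 1 only and 380 in replicate 2 only. This was 28.4% of the replicate 1 sites (24.7 to 32.4%) against 23.8% on the other autosomes, and 28.0% of the replicate 2 sites (24.4 to 32.0%) against 23.3%. Chromosome 7 ranked second of 19 in both, after chromosome 1 with 29.4% and 29.9%. Adjusted p was 0.110 in replicate 1 and 0.0785 in replicate 2 (Fisher's exact test, 2-sided). This test passed for 0% of the autosomes in replicate 1 and 5.26% in replicate 2, that is for chromosome 1 in replicate 2. At an unadjusted p of 0.05 it passed for 21.1% and 31.6%, or 4 and 6 autosomes, chromosome 7 among them (p = 0.0221 and 0.0142 by the exact test). Of these, only chromosomes 1 and 7 had a higher share than the others. Chromosomes 3 and 9 in both replicates, and 10 and 12 in replicate 2, had a lower one. Both tests of chromosome 7 rest on the same 148 positions. With a match anywhere within 1 kb on the same strand, the shares were 52.7% against 49.7% and 50.6% against 47.8% (exact test, adjusted p = 0.427 and 0.440). By strand, 27.1% of plus sites and 29.4% of minus sites of replicate 1 were shared, and 25.5% and 30.2% in replicate 2, with overlapping intervals.

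**Figure D4:**
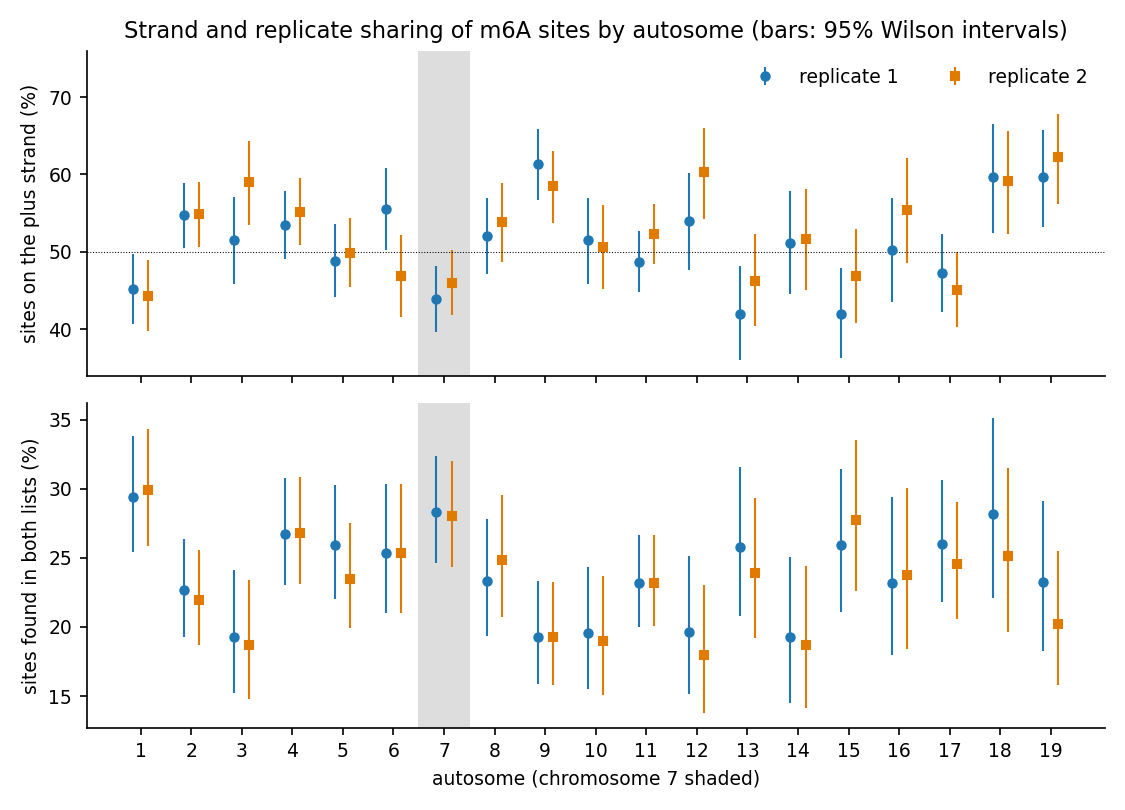
Share of sites on the plus strand (upper panel) and share of sites found in both lists (lower panel), in percent, for the 19 autosomes; circles are replicate 1, squares replicate 2, bars 95% Wilson intervals, the dotted line 50%, and chromosome 7 is shaded. Chromosome 7 ranked 17 of 19 by plus-strand share and second of 19 by sharing in both replicates.

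Sites found in a single list often lay near a site of the other list on the same strand. For the 374 such sites of replicate 1, the other list placed a site within 1 kb in 33.96% of cases (29.3 to 38.9%) and within 10 kb in 56.4%. For the 380 of replicate 2 this was so in 31.3% (26.9 to 36.1%) and 51.8%. On the opposite strand the shares within 1 kb were 1.07% and 0.526%. For sites found in a single list, these shares were not compared with the other autosomes. The median distance to the nearest same-strand site of the other list was 4767.5 nt in replicate 1 and 9094 nt in replicate 2, and the smallest was 4 nt in both. Within 10 nt of a site of the other list lay 3 unshared sites of replicate 1 and 6 of replicate 2. At every distance, the sites of the other list include the shared positions. An unshared site can therefore be a neighbour of a matched position and not a near miss. One such site was 29678690 of replicate 1, beside 29678686, which was found in both lists.

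Most sites stood alone. Of 412 same-strand groups in replicate 1 and 421 in replicate 2, 339 and 347 were single sites. The remaining 73 and 74 groups contained 183 and 181 sites. Groups of 2 sites numbered 52 and 51, groups of 3 numbered 13 and 16, and groups of 4 numbered 4 and 5. Groups of 5 or more numbered 4 and 2. A neighbour on the same strand, at most 1 kb away, was found beside 35.1% of replicate 1 sites (31.1 to 39.2%) and beside 34.3% of replicate 2 sites (30.4 to 38.4%), against 34.6% and 32.96% on the other autosomes (Fisher's exact test, adjusted p = 0.949 and 0.773). For this measure 5.26% of autosomes passed in replicate 1 and 10.5% in replicate 2. Within 100 nt such a neighbour was found for 15.9% of replicate 1 sites (13.01 to 19.3%) and 9.09% of replicate 2 sites (6.93 to 11.8%), against 15.1% and 12.9% on the other autosomes, where replicate 2 was also the lower list (Fisher's exact test, adjusted p = 0.762 and 0.0687). Pairs 11 to 100 nt apart numbered 43 in replicate 1 and 22 in replicate 2, whereas pairs 101 to 1000 nt apart numbered 106 and 111.

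Joining both lists gave 639 groups, 292 on the plus strand and 347 on the minus strand, of which 147 held 2 or more positions. Of these 147, 102 had sites from both replicates, and 55 of the 102 had no position in common. These counts were not compared with the other autosomes. The other 492 groups were single positions, of which 84 were shared. Taken within each list, groups of 2 or more had a site of the other list within 1 kb in 72.6% of cases for replicate 1 (61.4 to 81.5%) and in 66.2% for replicate 2 (54.9 to 75.95%). Single sites did so in 40.1% (35.04 to 45.4%) and 40.9% (35.9 to 46.2%). Larger groups offer more sites to match. Over all groups of a list, 45.9% in replicate 1 and 45.4% in replicate 2 had such a site. On the other autosomes the shares were 44.2% and 42.4% (Fisher's exact test, adjusted p = 0.783 and 0.558).

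The 12 groups with at least 6 positions or at least 3 shared positions, lettered A to L in order of coordinate, held 77 positions, 17 of them shared. Between none and all of the positions of a group were shared. Groups C and E have fewer than 6 positions and were named only for their shared ones. Their sharing, and their part of the 17, therefore followed from the rule. Group C, on the plus strand, had 3 positions, at 51724620, 51725056 and 51725428, and both lists held exactly these 3. Group E, on the minus strand from 82913963 to 82914727, had 4 sites of replicate 1 and 3 of replicate 2, and these 3 were all shared. Group A, on the minus strand from 30945996 to 30947530, had 4 and 5 sites with 3 shared, namely both ends and 30946048.

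Group I was the most compact, with 6 minus-strand positions in 196 nt from 125278485 to 125278680. Replicate 2 listed all 6 and replicate 1 listed 3 of them. Its pair at 125278676 and 125278680 was 4 nt apart, and replicate 2 gave the first of these on 2 lines. Group L, on the plus strand from 134911598 to 134912548, was the reverse case: replicate 1 listed all 7 positions and replicate 2 listed 2 of them.

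Group J was the largest, with 12 plus-strand positions over 3035 nt from 130142789 to 130145823. Replicate 1 had 7 sites and replicate 2 had 5, and none coincided. The closest cross-list distance was between 130143614 in replicate 2 and 130143627 in replicate 1. Group D in the 52 to 53 Mb bin (52084149 to 52086177, plus, 3 and 5 sites), group H (118217717 to 118219118, minus, 3 and 3) and group K (134703202 to 134704161, plus, 2 and 4) also had no shared position. In group H both lists held a position on 2 lines, 118217717 in replicate 1 and 118218237 in replicate 2. In these 4 groups each list had several sites in the same stretch of 1 strand, at positions that were not in the other list.

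Groups B, F and G had 1 shared position each. Group B ran from 51504064 to 51506298 on the plus strand with 5 and 3 sites. Group F ran from 87494438 to 87496541 on the minus strand with 3 and 4, and group G from 105863930 to 105865340 on the plus strand with 3 and 4. Of the 12 groups, 7 were on the plus strand and 5 on the minus strand, while of all 147 groups of 2 or more, 56 were plus and 91 minus.

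**Figure D5:**
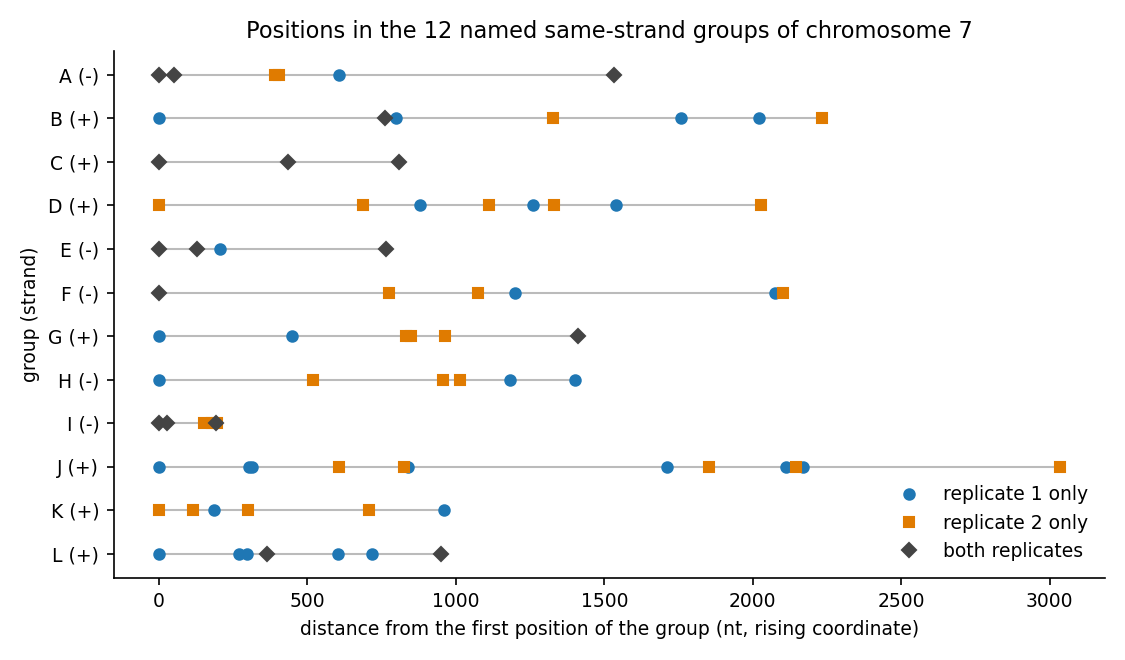
Positions within the 12 named same-strand groups of chromosome 7 (rows, with strand) by distance in nt from the first position of the group (horizontal axis, rising coordinate); circles were found in replicate 1 only, squares in replicate 2 only and diamonds in both. All 3 positions of group C are shared, which the naming rule required of a group of that size, while groups D, H, J and K have none in common.

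The closest neighbours on the same strand were 4 nt apart. No pair lay 1 to 3 nt apart within a list or between lists. Other autosomes were not compared for this, and whether the site calling allowed such pairs is unknown. There was 1 pair at 4 nt in replicate 1, at 29678686 and 29678690, and there were 2 in replicate 2, at 17500805 and 17500809 and in group I, all on the minus strand. Pairs 5 to 10 nt apart numbered 8 in replicate 1, 7 in replicate 2 and 8 between the lists. These counts overlap, since a pair with a shared position can enter both a list and the count between lists. The pair at 17500809 and 17500817 did so. The pair at 29678686 belonged to a tight group of 5 positions in 98 nt from 29678628 to 29678725, all 5 in replicate 1 and 1 of them in replicate 2. That group was named after its values were seen.

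Sites on opposite strands within 1 kb were few. Over both lists, 16 positions faced each other in 10 pairs at 6 places. The closest pair was 4099775 on plus, found in both lists, and 4099780 on minus, found in replicate 2 only, 5 nt apart. At 19683692 a plus site of replicate 1 lay between minus sites at 19683618, found in both lists, and at 19683790 and 19683815. In the 52 to 53 Mb bin, 52257685 on plus and 52258316 on minus were 631 nt apart. At 2 of the other places, 86842846 on plus and 86843106 on minus were both found in replicate 1 only, and 109214313 on plus and 109213924 on minus in replicate 2 only. At the sixth place, 140177806 on plus and 140177584 on minus were 222 nt apart, both in replicate 1 only.

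Some positions occupied 2 or more lines of a list, 35 of them in replicate 1 and 38 in replicate 2. Of these, 18 in each were shared, or 51.4% (35.6 to 67.01%) and 47.4% (32.5 to 62.7%). Positions on 1 line were shared in 26.7% (23.0 to 30.8%) and 26.5% (22.8 to 30.6%), intervals that do not overlap the former. On the other autosomes, positions on 1 line were shared in 22.4% and 21.9%. Positions on 2 or more lines were not compared with the other autosomes. Repetition occurred in both lists at 11 positions. Only 91326607 on the plus strand and 17500817 on the minus strand reached 3 lines. The first had 3 lines in each list and no neighbour within 1 kb. The second had 3 lines in replicate 1 and 2 in replicate 2, and lay in a group of 5 positions from 17500805 to 17501261. What a repeated line stands for is not given in the sources used here.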

How the data were processed

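Per the labels, mRNA from control testes was used for m6A miCLIP, with paired reads. The submitters' processing notes name mm9 as build, with CASAVA and BWA 0.7.10. How sites were called and filtered is not given in the sources used here. The authors deposited 1 list of 5 nt intervals per replicate, whose only values are positions and strands.

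Lines with the same start and strand were merged. Bins of 1 Mb start at the chromosome's first base. Each of 19 autosomes was compared with the other autosomes for 3 measures in 2 replicates by Fisher's exact test, 114 tests, Benjamini-Hochberg adjusted at 0.05. These tests and the Wilson intervals assume independent sites, and counting error is all they cover. Chromosome, bins, groups and lists were chosen with earlier results of these data known. Named by rule were the 10 densest bins, empty runs of 3 or more bins, groups with 6 positions or 3 shared ones, positions on 3 lines, pairs 4 nt apart and facing sites. Code was tested on simulated lists. Python 3.11.15, NumPy 2.4.6, SciPy 1.17.1 and matplotlib 3.10.9 were used. Sequences and genes were not analysed here.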

Additional observations from a re-analysis of the deposited data

How the results depend on the processing

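Of 31 alternative values other than leaving out a replicate, 23 were counted as unchanged, as were the 18 that leave out a replicate. Counts among the 23 could still shift. Groups of 2 or more sites, 73.5 per replicate, became 60.5 with gaps up to 500 nt and 98.5 with gaps up to 5 kb. Sites, 525 per replicate, became 416.5 same-strand groups, and the 148 shared positions became 176 with matches within 50 nt. The cause of the changes in the other values was not tested, apart from sets that hold fewer sites by construction. The share of all sites, 7.39%, was 8.78% among shared positions. The bins with a site, 103, became 56, the share of the 52 to 53 Mb bin, 5.24%, became 6.08%, and the longest empty stretch, 7.65 Mb, became 12.5 Mb with shared positions only. The plus-strand difference of -7.08 percentage points lost its call with same-strand groups (-6.14), with shared positions only (-9.01) and without the 25 to 40 Mb stretch (-3.41), chosen after seeing the data for its strand, so that a smaller difference was fixed in advance. The neighbour difference of 0.870 points was called at no window: it was 4.31 within 5 kb (unadjusted p = 0.0499 and 0.0694, Fisher's exact test) and -1.50 within 100 nt, a mean of opposite signs (15.9% against 15.1% in replicate 1, 9.09% against 12.9% in replicate 2). No paired analysis was possible because the replicates belong to a single group. The lists give no depth, so a site missing from a list is not shown to be unmethylated.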
